A study of Arabidopsis thaliana with 4 samples.

Results

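The genes described here encode proteins of the cytosolic 60S ribosomal subunit of Arabidopsis thaliana, families L3 to L19, with 58 loci in 20 families. Members were the probes that the platform's gene table assigns to one of these loci. A probe was found for 37 of the 58 loci, 1 probe for each, and 31 of these probes had a value on all 4 arrays. Of the other 6 probes, all lacked the array of replicate 1, and 1 of them (AT3G48960, family L13) had no value on any array. No probe was assigned to the loci of L3, L5 or L10, so 17 families were measured. The whole platform holds 26912 probes, of which 14539 carry a gene name and 19449 had a value on all 4 arrays.

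The measured RNA came from endosperm, the nutritive tissue of the seed, at 4 days after pollination, cut by laser from silique sections in 3 replicate samples. Each was hybridised against 1 common control RNA, which was scraped from the silique tissue that the laser had left on one sample slide. Endosperm carried Cy3 in replicate 1 and Cy5 in replicate 3. Replicate 2 took 2 arrays, between which the dyes were exchanged. Both RNAs went through 2 rounds of linear amplification, and for the plants' accession and genotype the sources used here give nothing.

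Values are log2 ratios as the authors deposited them, given here as endosperm over reference, so that 1 means 2-fold. The numerator and the log base are not stated. Endosperm is the likely numerator, because the median log2 ratio of 11 measured endosperm marker genes was 1.67 and 1.89 on the Cy3 arrays of replicates 1 and 2, and 1.82 and 1.31 on the Cy5 arrays of replicates 2 and 3. With the other numerator, every direction below would turn round. Of these markers 10 were higher, against 34.0% of all named loci, which is no separate result because they served to choose the numerator. Of 3 measured seed coat markers 0 were higher and 1 was lower, and the 1 measured marker of the silique wall was lower (-2.40). Of all named loci 23.7% were lower. No embryo marker was measured (0 of 10), so the embryo's part in either RNA was not tested. A ratio in bulk tissue cannot tell fewer cells of a type from less RNA per cell. Separate plants for the 3 samples are not stated in the labels, so each p-value covers only the spread between these samples. The spread of the reference is left out. The test used, limma, also draws the variance of each probe toward that of all probes. A p-value therefore does not rest on the printed SD alone, and for widely spread members it rests on a smaller spread. The median SD was 0.41 for the complete members and 0.23 over all probes, and 25 of the 31 members lay above the latter.

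Cytosolic ribosomes of plants hold one copy of each core ribosomal protein, but nearly every such protein is encoded by a small family of paralogous genes, often near-identical in protein sequence. The large subunit carries the peptidyl transferase centre, where peptide bonds form, the tunnel through which the new chain leaves, and mobile stalks that bind transfer RNA and translation factors. Ribosomal protein transcripts are known to be abundant in dividing plant tissue, and loss of single paralogues in Arabidopsis is known to alter leaf shape or embryo growth. Paralogues can share long stretches of sequence, and cross-hybridisation between their probes was not tested.

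Of the 31 members with complete values, 19 were higher in endosperm, and the other 12 did not pass. All 31 members with complete values had a mean log2 ratio above 0, between 0.12 (AT5G27850, L18) and 1.77 (AT5G22440, L10a), with a median of 0.84 or 1.79-fold. The median over all 19449 probes was 0.11. By limma with Benjamini-Hochberg adjustment over all 19449 probes, the 19 members passed at 0.05, and 0 were lower. Over all probes 57.5% were called, 32.0% as higher and 25.5% as lower, and the 61.3% of members called higher are to be read against the share of 32.0%. A mean above 2-fold was found for 12 of the 31 members, against 13.0% of all probes. When the hypothesis tested was a change beyond 1.5-fold, 9 members were higher, where 12.2% of all probes were higher and 25.1% passed in either direction. Values above 0 on all 4 arrays were found for 22 of the 31 members, among them all 19 called, and for 40.4% of all probes. Of the 17 measured families, 13 had at least 1 called member, and the others were L15, L18, L18a and L19.

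**Figure D1:**
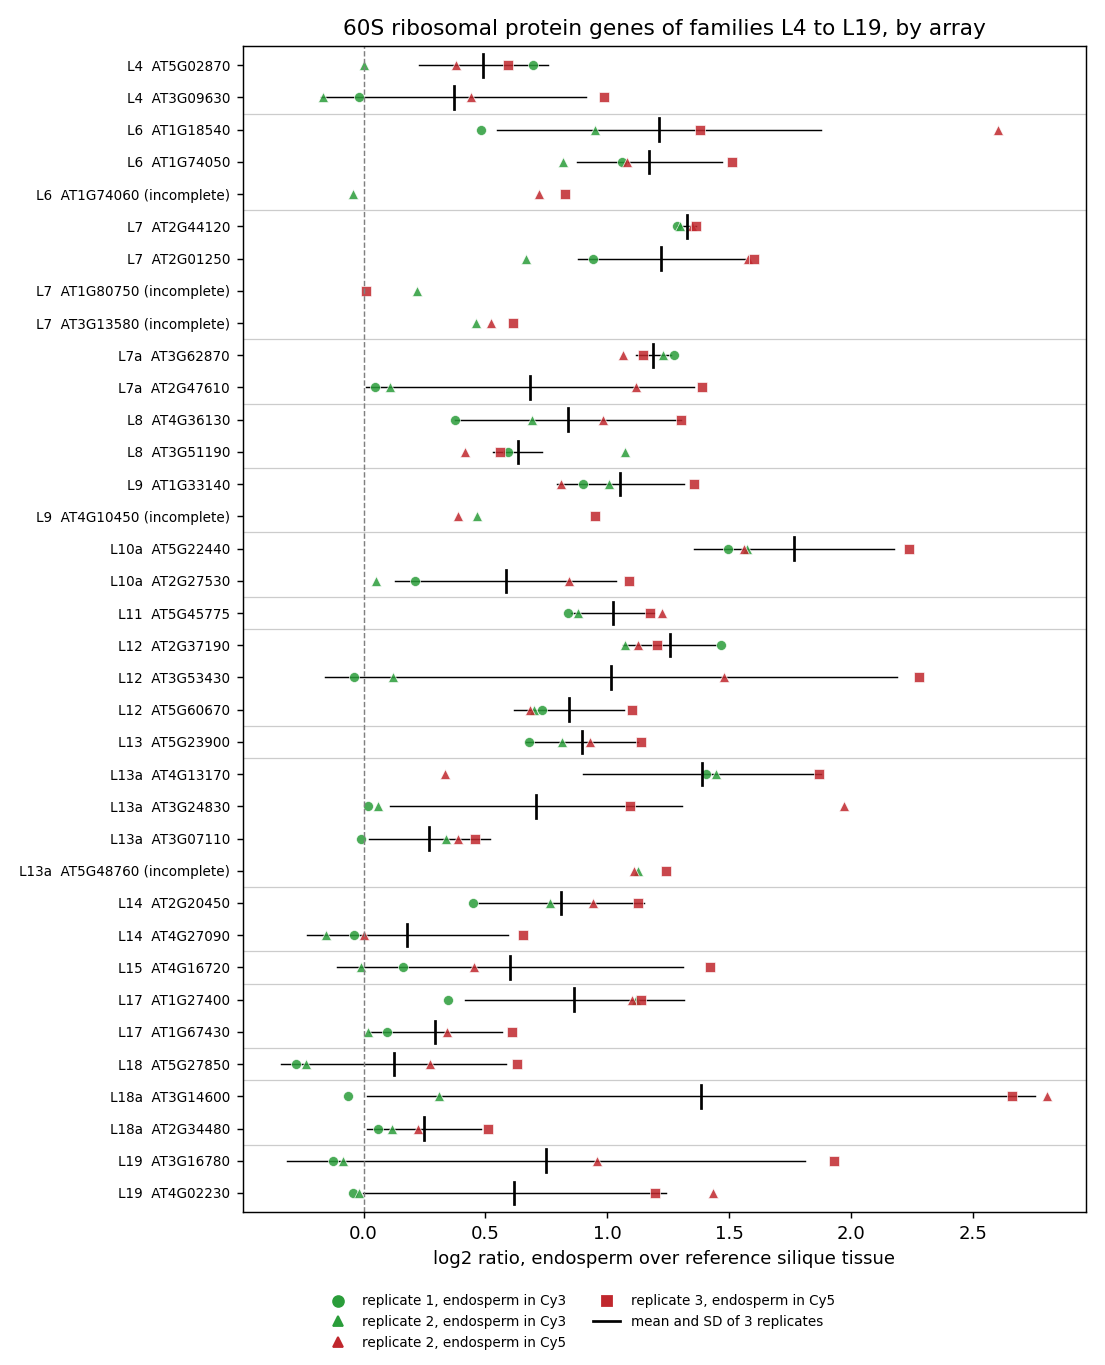
Log2 ratios (endosperm over reference silique tissue, x axis) of the 31 complete and 5 incomplete members, grouped by family down the page. Green symbols are arrays with endosperm in Cy3 and red ones in Cy5, circles stand for replicate 1, triangles for replicate 2 and squares for replicate 3, and the black bar and line give the mean and SD of the 3 replicates. AT2G44120 has its 4 values within 1.29 to 1.37, while AT3G14600 lies at -0.06 and 0.31 with Cy3 and at 2.80 and 2.66 with Cy5.

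The size of the difference moved with the dye. The median log2 ratio of the 31 members was 0.38 (replicate 1) and 0.67 (replicate 2) where endosperm carried Cy3, and 0.96 (replicate 2) and 1.18 (replicate 3) where it carried Cy5. Of the 124 member values 14 were below 0, 8 on the array of replicate 1 and 6 on the Cy3 array of replicate 2, with 0 on either Cy5 array. These 14 values belong to 9 members, all among the 12 that did not pass. Within the Cy3 arrays 16 of the 31 members were higher, against 30.1% of all probes, and within the Cy5 arrays 27 were, against 30.2% of all probes. With the dye as a term, which takes the 4 arrays as independent, 26 members and 37.7% of all probes were higher. No member was lower in these 3 fits. Of the 12 members that did not pass, 6 passed without replicate 1, where 31.7% of all probes were higher, 9 within the Cy5 arrays and 7 with the dye term. None of them passed without replicate 2, without replicate 3 or within the Cy3 arrays, and in these settings 4, 3 and 3 called members were lost. The dyes weigh equally in the main mean. Without replicate 1 the Cy5 arrays weigh more, and without replicate 3 the Cy3 arrays do, so sample and dye cannot be told apart in these fits.

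The 2 arrays of replicate 2 held the same pair of RNAs and differed in the dyes. Of the 31 members 24 had the higher ratio on the Cy5 array, against 46.9% of all probes, and 7 had a difference above 1, against 1.84% of all probes. The median difference was 0.29 for the members and -0.02 over all probes. Both Cy5 arrays lay above both Cy3 arrays for 22 of the 31 members, against 20.9% of all probes. For the dye term itself limma called 0 of 31 members and 0.00% of all probes after adjustment. At an unadjusted p under 0.05 it took 13 members, all of them higher with Cy5, against 4.74% of all probes in that direction and 9.40% in either. Which dye gives the truer ratio was not tested.

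**Figure D2:**
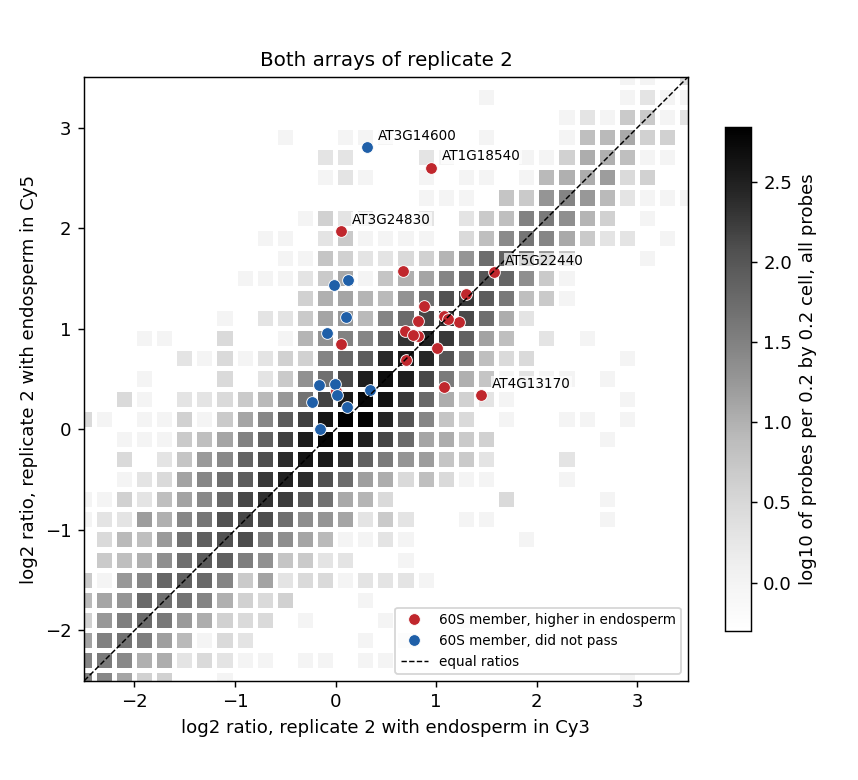
Log2 ratios of replicate 2 with endosperm in Cy3 (x axis) and in Cy5 (y axis). Grey cells give the number of all probes (log10), red points are members called higher over all replicates, blue points are members that did not pass, and the dashed line marks equal ratios. AT3G14600, AT1G18540 and AT3G24830 lie far above the line, AT4G13170 lies far below it, and AT5G22440 lies on it.

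L10a forms the mobile L1 stalk that guides transfer RNA out of the ribosome, and it showed the widest gap between called paralogues. AT5G22440 had log2 ratios of 1.5, 1.57, 1.56 and 2.24 (here and below in the order replicate 1 with Cy3, replicate 2 with Cy3, replicate 2 with Cy5, replicate 3 with Cy5). Its mean of 1.77 ± 0.41 (SD, n = 3), or 3.40-fold, was the highest of all members (limma adjusted p = 0.000624) and stood above 97.1% of all probes. PGY1 (AT2G27530), known from mutants with altered leaf polarity, had 0.21, 0.05, 0.84 and 1.09. Its mean was 0.58 ± 0.45, or 1.5-fold (limma adjusted p = 0.0431). That call was lost when replicate 2 (adjusted p = 0.0944) or replicate 3 (0.33, adjusted p = 0.186) was left out. It was also lost within the Cy3 pair of arrays (0.13, adjusted p = 0.544) and after median centring (adjusted p = 0.0758). The first paralogue was the higher on every array, by 1.28, 1.52, 0.72 and 1.15, a mean difference of 1.18 ± 0.09 (SD, n = 3) or 2.27-fold. No probe was assigned to AT1G08360, the remaining locus of the family.

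L12 sits at the base of the stalk that binds translation factors. AT2G37190 was at 1.47, 1.07, 1.13 and 1.20, with a mean of 1.26 ± 0.19 (2.39-fold, limma adjusted p = 0.000678). AT5G60670 was at 0.73, 0.70, 0.68 and 1.10, with a mean of 0.84 ± 0.22 (1.79-fold, limma adjusted p = 0.00345). Both were above 0 on each array, and AT2G37190 was the higher on all 4, by between 0.10 and 0.73. AT3G53430 had -0.04 and 0.12 with Cy3, but 1.48 and 2.28 with Cy5. Its mean of 1.01 ± 1.17 did not pass (limma adjusted p = 0.0817), although it exceeded that of AT5G60670. It was below both paralogues on the Cy3 arrays and above both on the Cy5 arrays. Without replicate 1 it passed (1.54, adjusted p = 0.0154), as it did with the dye as a term (0.96, adjusted p = 0.00214).

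L9 lies near the base of the same stalk, and L11 binds 5S ribosomal RNA in the central protuberance. PGY2 (AT1G33140, L9), another gene known from leaf polarity mutants, had 0.90, 1.01, 0.81 and 1.35, with a mean of 1.05 ± 0.26 (2.08-fold, limma adjusted p = 0.00177). Its paralogue AT4G10450 had no value in replicate 1 and lay lower on each of the other arrays, at 0.46, 0.39 and 0.95. A fit of replicates 2 and 3 alone leaves 2 samples and weighs Cy5 more than Cy3. In it AT4G10450 was higher in endosperm at 0.69 (limma adjusted p = 0.0205). Of all probes 56.2% were called there, 31.5% as higher and 24.6% as lower. AT5G45775, the 1 measured gene of the 4 for L11, had 0.84, 0.88, 1.22 and 1.18 and a mean of 1.02 ± 0.17 (2.03-fold, limma adjusted p = 0.00126).

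L4 and L17 line the exit tunnel. AT5G02870 (L4) had 0.69, 0.00, 0.38 and 0.59, with a mean of 0.49 ± 0.27 (1.41-fold, limma adjusted p = 0.031). The call was lost when replicate 1 (0.39, adjusted p = 0.0807) or replicate 3 (0.44, adjusted p = 0.11) was left out, within the Cy3 pair of arrays (0.35, adjusted p = 0.212), and after median centring (0.41, adjusted p = 0.0538). AT3G09630 (L4) had -0.02, -0.16, 0.44 and 0.99, a mean of 0.37 ± 0.54 that did not pass (limma adjusted p = 0.193) except within the Cy5 arrays (0.72, adjusted p = 0.0243). The order of these paralogues differed between the dyes, with AT5G02870 higher by 0.71 and 0.17 on the Cy3 arrays and lower by 0.06 and 0.40 on the Cy5 arrays.

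In L17, AT1G27400 had 0.35, 1.12, 1.10 and 1.14, with a mean of 0.86 ± 0.45 (1.82-fold, limma adjusted p = 0.0107). It missed the threshold without replicate 2 (0.74, adjusted p = 0.0575). AT1G67430 had 0.10, 0.02, 0.34 and 0.61, and its mean of 0.29 ± 0.27 did not pass (limma adjusted p = 0.138) except within the Cy5 arrays (0.48, adjusted p = 0.0384). AT1G27400 was the higher on all 4 arrays, by 0.25, 1.10, 0.76 and 0.53, or 0.57 ± 0.34 on average.

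L8 lies beside the peptidyl transferase centre, and L19 reaches into a bridge to the small subunit. The L8 gene AT4G36130 had 0.38, 0.69, 0.98 and 1.30 (mean 0.84 ± 0.46, 1.79-fold, limma adjusted p = 0.0129). Its paralogue AT3G51190 had 0.59, 1.07, 0.42 and 0.56 (mean 0.63 ± 0.10, 1.55-fold, limma adjusted p = 0.00603), and did not pass without replicate 2 (adjusted p = 0.0579). AT3G51190 was the higher of the pair on both Cy3 arrays and the lower on both Cy5 arrays. Of L19, AT3G16780 had -0.12, -0.08, 0.96 and 1.93, and AT4G02230 had -0.04, -0.02, 1.43 and 1.19. Neither passed, with means of 0.75 ± 1.06 (limma adjusted p = 0.14) and 0.62 ± 0.62 (limma adjusted p = 0.0712). Both L19 genes lay between -0.12 and -0.02 on the Cy3 arrays and at 0.96 or more on the Cy5 arrays. Without replicate 1 both passed (adjusted p = 0.0369 and 0.00628), and the same holds with the dye as a term (adjusted p = 0.0147 and 0.00187).

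L6, L7 and L7a are further proteins of the large subunit. AT2G44120 (L7) had the smallest spread of all members, at 1.29, 1.30, 1.35 and 1.37, with a mean of 1.33 ± 0.04 (2.51-fold, limma adjusted p = 0.000381). AT2G01250 (L7) had 0.94, 0.67, 1.58 and 1.60, with a mean of 1.22 ± 0.34 (2.33-fold, limma adjusted p = 0.00158). AT2G44120 was thus above AT2G01250 on both Cy3 arrays and below it on both Cy5 arrays. AT3G13580 lacked replicate 1 and had 0.46, 0.52 and 0.62 on the other arrays, lower than both of these paralogues on each, and it was called higher in the fit of replicates 2 and 3 (0.55, limma adjusted p = 0.0161). AT1G80750, the fourth L7 locus, had values on 2 arrays only, 0.22 (replicate 2 with Cy3) and 0.01 (replicate 3), and was not tested.

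In L7a, AT3G62870 had 1.27, 1.23, 1.07 and 1.15, with a mean of 1.19 ± 0.07 (2.28-fold, limma adjusted p = 0.000564). AT2G47610 had 0.05 and 0.11 with Cy3 and 1.12 and 1.39 with Cy5, and its mean of 0.68 ± 0.67 did not pass (limma adjusted p = 0.0641). AT3G62870 therefore exceeded AT2G47610 by 1.23 and 1.12 on the Cy3 arrays, whereas on the Cy5 arrays it was lower by 0.05 and 0.24. Without replicate 1, AT2G47610 passed (1.0, adjusted p = 0.0123).

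In L6, AT1G74050 had 1.06, 0.82, 1.08 and 1.51, with a mean of 1.17 ± 0.30 (2.25-fold, limma adjusted p = 0.00144). AT1G18540 had 0.48, 0.95, 2.60 and 1.38, with nearly the same mean of 1.21 ± 0.66 (2.32-fold, limma adjusted p = 0.00858) and a difference of 1.65 between the arrays of replicate 2. AT1G74060, the direct neighbour of AT1G74050 on chromosome 1, lacked replicate 1 and had -0.04, 0.72 and 0.83, below AT1G74050 on each array. In the fit of replicates 2 and 3 it was higher in endosperm at 0.58 (limma adjusted p = 0.0311).

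The human counterpart of L13a is also known to act off the ribosome as a translational repressor. AT4G13170 had 1.41, 1.44, 0.34 and 1.87, with a mean of 1.39 ± 0.49 (2.62-fold, limma adjusted p = 0.00218), and missed the threshold on the Cy5 arrays alone (1.10, adjusted p = 0.0617). It was the member with the largest drop from the Cy3 to the Cy5 array of replicate 2 (-1.11). AT3G24830 had the opposite pattern, with 0.02, 0.06, 1.97 and 1.09, and was called at 0.71 ± 0.60 (1.63-fold, limma adjusted p = 0.0431). Its call was lost when replicate 2 (0.56, adjusted p = 0.174) or replicate 3 (0.52, adjusted p = 0.127) was left out, and within the Cy3 pair of arrays (0.04, adjusted p = 0.862). Median centring (adjusted p = 0.0688) and the 4 arrays as 4 samples (adjusted p = 0.0754) ended it too. AT3G07110 did not pass, with -0.01, 0.34, 0.39 and 0.46 and a mean of 0.27 ± 0.25 (limma adjusted p = 0.155). It passed without replicate 1 (0.41, adjusted p = 0.0411), within the Cy5 arrays (0.42, adjusted p = 0.0403) and with the dye term (0.29, adjusted p = 0.0482). It did not pass without replicate 2, without replicate 3 or on the Cy3 arrays. AT5G48760 lacked replicate 1 and had 1.12, 1.11 and 1.24, and in the fit of replicates 2 and 3 it was 2.26-fold higher (limma adjusted p = 0.00142). AT4G13170 exceeded AT3G07110 by 1.42, 1.11 and 1.41 on 3 arrays and was 0.05 lower on the Cy5 array of replicate 2.

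L13, L14, L15, L18 and L18a also belong to the core proteins of the large subunit. AT5G23900, the measured L13 gene, was higher, with 0.68, 0.81, 0.93 and 1.14 (mean 0.90 ± 0.23, 1.86-fold, limma adjusted p = 0.00281). In L14, AT2G20450 had 0.45, 0.76, 0.94 and 1.12 (mean 0.81 ± 0.34, 1.75-fold, limma adjusted p = 0.00759), while AT4G27090 had -0.04, -0.15, 0.00 and 0.66 and did not pass (mean 0.18 ± 0.41, limma adjusted p = 0.428). AT2G20450 was the higher on all 4 arrays, by 0.49, 0.92, 0.94 and 0.47, or 0.63 ± 0.26 on average. The L15 gene AT4G16720 did not pass, with 0.16, -0.01, 0.45 and 1.42 (mean 0.60 ± 0.71, limma adjusted p = 0.102). It passed within the Cy5 arrays (0.94, adjusted p = 0.0327) and with the dye term (0.51, adjusted p = 0.0402). It did not pass on the Cy3 arrays or with any replicate left out. The L18 gene AT5G27850, lowest of the members with complete values, had -0.28, -0.24, 0.27 and 0.63 (mean 0.12 ± 0.46, limma adjusted p = 0.614). It stood on opposite sides of 0 with the dyes.

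L18a held the member with the largest dye difference. AT3G14600 had -0.06 and 0.31 with Cy3, but 2.80 and 2.66 with Cy5, which are the highest member values on those arrays. Its mean of 1.38 ± 1.37 just missed the threshold (limma adjusted p = 0.0503). It passed without replicate 1 (2.11, adjusted p = 0.00243) and with the dye as a term (1.43, adjusted p = 0.000138), whereas the Cy3 pair of arrays gave 0.12 (adjusted p = 0.603). Its paralogue AT2G34480 did not pass, with 0.06 and 0.12 on the Cy3 arrays and 0.22 and 0.51 on the Cy5 arrays (mean 0.25 ± 0.23, limma adjusted p = 0.18). The difference between these paralogues was -0.12 and 0.19 on the Cy3 arrays and 2.58 and 2.15 on the Cy5 arrays.

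Paralogues were then compared across the 12 families with at least 2 complete members, which gave 16 pairs. In 4 of these families all complete members were higher (L6, L7, L8 and L10a), in 6 some were (L4, L7a, L12, L13a, L14 and L17), and in 2 none were (L18a and L19). A call in one paralogue and not in another does not show that they differ, and a sign-flip test over 3 replicates cannot give a two-sided p below 0.25, so the differences are described by their sign and spread. The mean difference within a pair ranged from 0.04 to 1.18, with a median of 0.43. For comparison, 2 probes of 1 and the same locus differed by a median of 0.45 (117 loci), and any pair of probes on the platform by 0.86. Of the 16 pairs 3 differed by more than 2 SD of their replicate differences, a count that was not made for other probe pairs. These were L10a (AT5G22440 over PGY1), L14 (AT2G20450 over AT4G27090) and L13a (AT4G13170 over AT3G07110). The SD was taken after the 2 arrays of replicate 2 were averaged, so it leaves out the difference between them. On the Cy3 and the Cy5 array of replicate 2 the L10a pair differed by 1.52 and 0.72. The L14 pair differed there by 0.92 and 0.94, and the L13a pair by 1.11 and -0.05.

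The order within a pair was the same on all 4 arrays for 4 of the 16 pairs, namely those of L10a, L14 and L17 and AT2G37190 over AT5G60670 in L12. Of all probe pairs 73.1% kept 1 order on the 4 arrays, and of the 117 pairs of probes for 1 locus 62 did (53.0%). Probe pairs in general lie further apart than paralogues, whereas the pairs for 1 locus lie about as close. In 6 of the 16 pairs, from L4, L7, L7a, L8 and L12, one paralogue was higher on both Cy3 arrays and the other on both Cy5 arrays, against 4.49% of all probe pairs and 5.98% of the pairs for 1 locus. Between the 2 arrays of replicate 2 the order turned in 9 of the 16 pairs, against 13.4% of all probe pairs and 20.5% of the pairs for 1 locus. Within the Cy3 arrays 13 of the 16 pairs kept their order and within the Cy5 arrays 12 did. The pairs share members in L12 and L13a, and centring of the arrays cancels in a difference.

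**Figure D3:**
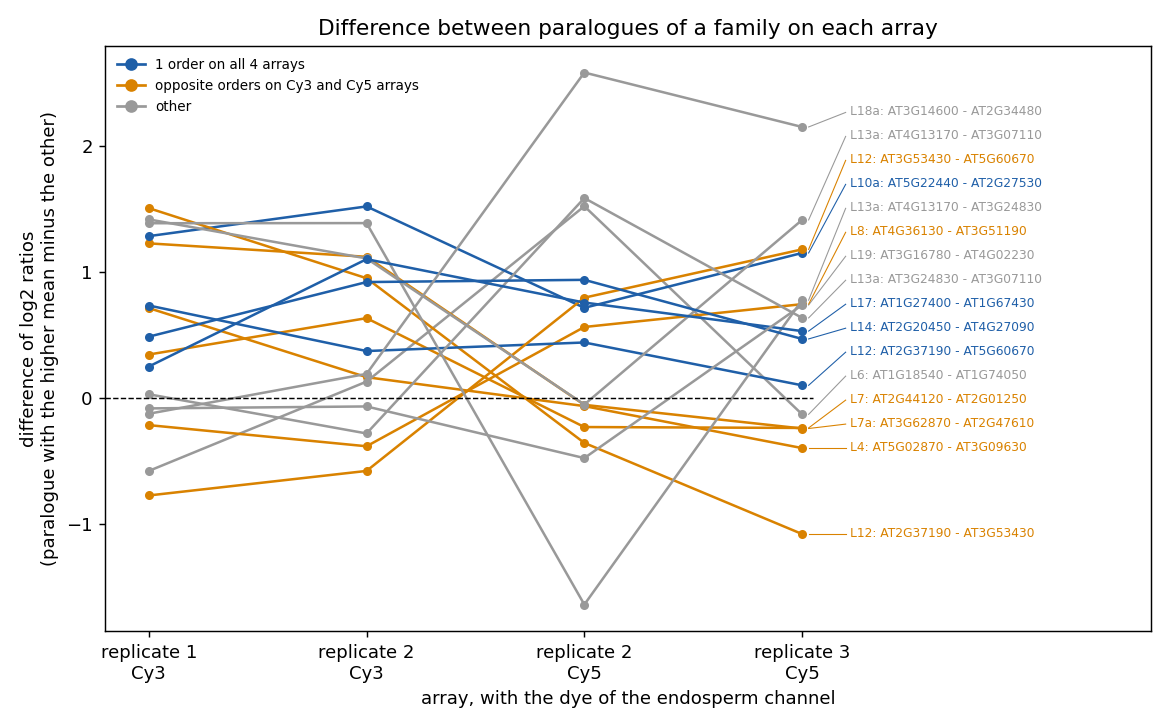
Difference of log2 ratios between the paralogues of a family (y axis, the one with the higher mean minus the other) on each of the 4 arrays (x axis, with the dye of the endosperm channel), 1 line for each of the 16 pairs. Blue lines are the 4 pairs with 1 order on all arrays, orange lines the 6 pairs whose order is opposite on the Cy3 and the Cy5 arrays, and grey lines the other 6 pairs. The L10a pair lies between 0.72 and 1.52, and the L18a pair lies at -0.12 and 0.19 with Cy3 and at 2.58 and 2.15 with Cy5.

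Other genes of the ribosome were counted in the same way, by locus, over the 10509 named loci with complete values, of which 34.0% were higher and 23.7% lower. Of 48 measured loci for the remaining 60S proteins 27 were higher and 0 lower, with a median log2 ratio of 0.78, and of 51 loci for the 40S subunit 27 were higher and 0 lower, with a median of 0.67. In the same fit 19 of the 31 L3 to L19 loci were higher. Among the other 60S loci AT4G29410 was highest at 1.73 ± 0.15 (limma adjusted p = 0.000279), and AT3G44590 was lowest at 0.02 ± 0.10. Among the 40S loci AT5G09490 was highest at 2.62 ± 0.16 (limma adjusted p = 0.000157). AT2G31610 was lowest, below 0 on all 4 arrays at -0.01, -0.17, -0.29 and -0.41, with a mean of -0.22 ± 0.20 that did not pass (limma adjusted p = 0.21). Of 6 measured loci for 50S proteins of plastid ribosomes 5 were higher, AT4G01310 being the lowest at 0.70 ± 0.17, and AT1G29070 had the highest mean but did not pass, at 1.19 ± 1.14 (limma adjusted p = 0.0503). Of 9 measured loci for ribosome assembly factors 7 were higher and 0 lower, with a median of 1.46. The highest was AT5G27120 at 1.91 ± 0.43 (limma adjusted p = 0.000639), and the lowest was AT3G15460 at 0.36 ± 0.17, which did not pass (limma adjusted p = 0.0574).

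The lists of cytosolic ribosomal proteins also had their higher medians on the Cy5 arrays. The medians of the other 60S loci were 0.43 and 0.31 on the Cy3 arrays and 0.83 and 1.03 on the Cy5 arrays, and those of the 40S loci were 0.34 and 0.28 with Cy3 and 0.86 and 1.0 with Cy5. The plastid 50S loci had medians of 0.76 and 0.71 with Cy3 and of 1.01 and 1.23 with Cy5. The assembly factors had medians of 1.42 and 1.08 with Cy3 and of 0.77 and 1.78 with Cy5, so that their lowest and highest medians were both on Cy5 arrays. Over all named loci the medians lay between 0.08 and 0.16 on the 4 arrays.

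**Figure D4:**
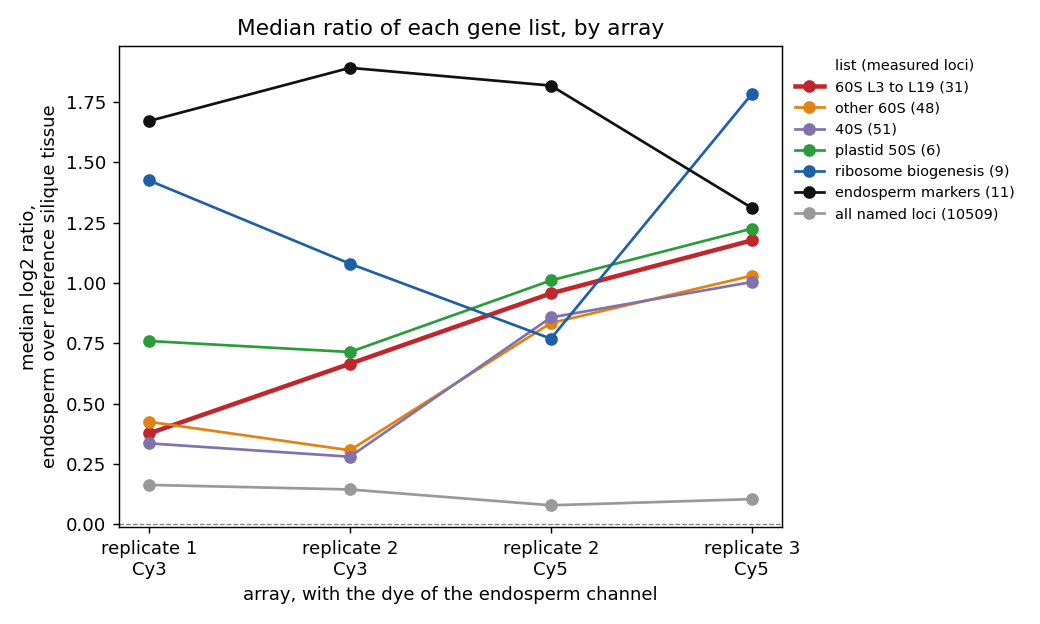
Median log2 ratio (endosperm over reference silique tissue, y axis) of 7 lists of loci on each of the 4 arrays (x axis, with the dye of the endosperm channel), with the number of measured loci in the legend. The L3 to L19 genes (thick red line) lie at 0.38 and 0.67 with Cy3 and at 0.96 and 1.18 with Cy5, above all named loci (grey) on each array.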

How the data were processed

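Per the labels, each array compared amplified, amino-allyl labelled endosperm RNA with 1 reference RNA. The authors deposited 1 log2 ratio per probe and array (log base 2 assumed). The sources used here do not give the scanner, background correction, normalization or the filter behind empty cells. The mean over all probes with a value lay between -0.0025 and -0.0007 on the 4 arrays, and the median between 0.05 and 0.12. A ratio above 0 is thus a ratio above the average probe of that array. Without intensities, dim spots could not be filtered. Precision is limited by the 4 arrays.

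Of the 14539 named probes, 14485 were matched by gene identifier to the RefSeq gene table (TAIR10.1), and 0 named several genes. The match gave the locus by which probes were assigned to members and lists, and the RefSeq table also gave names and neighbours. For a probe without a match, a gene symbol that was itself a locus was used. Family names follow general knowledge of Arabidopsis nomenclature. The members and all gene lists were chosen with earlier results of these data known. No probe or protein sequences were used here.

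The arrays of replicate 2 were averaged, and limma 3.58.1 under R 4.3.3 tested the mean of 3 replicates for a difference from 0 (lmFit and eBayes, two-sided, Benjamini-Hochberg over all 19449 complete probes, 2 residual degrees of freedom per probe). The test was tried on simulated data, drawn as independent normal values without a dye effect. That trial therefore does not bear on the differences between dyes seen here. Other lists were fitted by locus, probes averaged. AT5G46430 of the other 60S list had 13 complete probes. By rule every measured member is named, with array values for the 3 highest, the 3 lowest and all paralogues, and of other lists the highest and lowest locus. Array values of the remaining members were added. Alternatives left out each replicate, centred arrays, split them by dye, added a dye term, took 4 samples, changed the probe filter, used loci, and tested against a fold of 1.5.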

Additional observations from a re-analysis of the deposited data

How the results depend on the processing

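Of the 19 members called higher, 13 passed under all 10 alternatives that tested against no change, and 0 members were called lower under any alternative run. The same count was not made over all called probes, so 13 of 19 cannot be set against a background share. The number called higher was 24, 15 and 16 without replicates 1, 2 and 3, where 31.7%, 23.8% and 27.4% of all probes were higher. It was 16 with each array centred (28.2% of all probes) and 9 against a fold change of 1.5 (12.2%). An alternative chosen after seeing the data left out replicate 1 and took all probes with values on the other 3 arrays. In it 28 of 35 members were higher, against 31.5% of all probes. Both fits without replicate 1 weigh Cy5 more than Cy3, so sample and dye cannot be told apart in their counts. Against a fold change of 1.5, a stricter hypothesis on the same 19449 probes, 4885 were called in either direction. When loci replaced probes fewer features were tested, and 6056 of 10509 were called, or 57.6% against 57.5% in the main fit. The median of the members lay between 0.65 and 1.05 without a replicate, and was 0.53 on the Cy3 arrays and 1.11 on the Cy5 arrays. The number of paralogue pairs with 1 order was 5 to 8 without a replicate, 13 on the Cy3 arrays and 12 on the Cy5 arrays, where fewer arrays had to share the order. Members that changed sign had not passed. They were AT4G27090 (-0.057 to 0.31) and AT5G27850 (-0.13 to 0.32) over the fits that leave out a replicate, both below 0 without replicate 3, and on the Cy3 arrays alone AT3G09630 (-0.092), AT4G27090 (-0.10), AT5G27850 (-0.26), AT3G16780 (-0.10) and AT4G02230 (-0.031), and the cause was not tested. Each value is already a ratio of endosperm to the 1 reference on the same array, and the samples, which form 1 group, were not paired further. Replicates 1 and 3 differ in dye as well as in sample, so only replicate 2 separates the 2.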

Other observations

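Across the 31 members, the log2 ratios of arrays with the same dye orientation went together more closely than those of arrays with opposite orientation. Pearson's r between the Cy3 arrays of replicates 1 and 2 was 0.86, and between the Cy5 arrays of replicates 2 and 3 it was 0.65. Between the 2 arrays of replicate 2, which hold the same RNAs, it was 0.24, and the other pairs of opposite orientation gave 0.09 to 0.27, the lowest of them for replicate 1 and the Cy5 array of replicate 2. Over all 19449 probes the 6 correlations lay between 0.87 and 0.92. These are descriptions across probes that share arrays and reference, and the members span a narrower range of ratios than all probes.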
